A study of Mus musculus with 6 samples.

Results

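The cation-chloride cotransporters of the Slc12 family were examined in whole retina after microbead or saline injection. The 5 genes are *Slc12a2*, *Slc12a4*, *Slc12a5*, *Slc12a7* and *Slc12a9*, taken by symbol from the 31169 genes of the deposited count table, and all 5 were among the 17707 genes that passed the filter on low counts. C57BL/6 mice were injected into the anterior chamber at 1 month of age with 15 μm polystyrene microbeads, which obstruct aqueous outflow and raise intraocular pressure (IOP), or with saline as the control, and retinas were taken 4 weeks later, at 2 months of age. Poly(A) RNA was sequenced from 3 saline and 3 microbead retinas. The mice were wild type and male, the whole retina was used without sorting of cells, and the animals behind the libraries are not named, so that p-values measure the spread between these 6 libraries.

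Cation-chloride cotransporters couple the movement of chloride across the plasma membrane to that of sodium or potassium. The sodium-driven cotransporter NKCC1 loads cells with chloride, whereas the potassium-driven KCCs extrude it, and the balance between them sets whether GABA and glycine hyperpolarize or depolarize a neuron. In retina, KCC2 is known from ganglion, amacrine and some bipolar cells, and NKCC1 from horizontal cells and the dendrites of ON bipolar cells. The family also carries the ion flux by which cells regulate their volume, under control of the WNK kinases and their targets SPAK and OSR1.

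Libraries held 36085737 to 46481382 counts in saline and 13574949 to 19834366 counts in microbead retina. Levels are given as CPM, the count divided by the TMM-scaled library size and given per 1000000. Between 3.19 and 3.57% of saline counts and 8.90 to 10.6% of microbead counts fell on the mitochondrial genome. The library names run in 1 numbering in which the saline libraries come before the microbead libraries. Anything that differed along this numbering cannot be told apart from the injection. Transcripts of 17 rod photoreceptor genes, *Sag* among them, summed to between 47880 and 62340 CPM in each library. Lens transcripts summed to 33.0, 2.57 and 396 CPM in saline replicates 1, 2 and 3 and to at most 2.21 CPM in any microbead library, and *Lim2* of the 10 lens genes was not analysed here. Saline replicate 3 therefore stands apart in lens RNA, and results are also given without it.

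*Slc12a5*, which encodes the neuronal chloride extruder KCC2, lies on the forward strand of chromosome 2 (GRCm38) from 164960802 to 164999731. GENCODE vM21 lists 10 transcripts of the gene, of which 4 are coding, and the longest coding sequence has 3414 bases in a transcript of 26 exons. The windows of 250 bases before the annotated RefSeq starts (GRCm38.p6) are shown because *Slc12a5* has alternative first exons while the deposited counts pool them, and because a shared hexamer occurs before starts of *Slc12a5*, *Slc12a7* and *Slc12a9*. Sequences run 5′ to 3′ on the strand of the gene, and capitals mark CACGTG, an E-box hexamer that reads the same on both strands and is bound by the USF factors.
Slc12a5 upstream start (chr2:164960596-164960845, + strand): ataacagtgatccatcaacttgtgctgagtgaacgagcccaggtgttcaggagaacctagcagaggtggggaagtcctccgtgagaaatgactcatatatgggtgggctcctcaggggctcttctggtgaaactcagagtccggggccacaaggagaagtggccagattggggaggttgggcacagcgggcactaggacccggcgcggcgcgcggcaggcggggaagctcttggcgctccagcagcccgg
Slc12a5 downstream start (chr2:164967738-164967987, + strand): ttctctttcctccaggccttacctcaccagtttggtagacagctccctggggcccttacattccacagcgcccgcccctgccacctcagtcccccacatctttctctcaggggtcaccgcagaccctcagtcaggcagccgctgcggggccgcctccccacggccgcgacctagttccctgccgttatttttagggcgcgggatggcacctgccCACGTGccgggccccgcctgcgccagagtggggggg
Slc12a7 (chr13:73763447-73763696, + strand): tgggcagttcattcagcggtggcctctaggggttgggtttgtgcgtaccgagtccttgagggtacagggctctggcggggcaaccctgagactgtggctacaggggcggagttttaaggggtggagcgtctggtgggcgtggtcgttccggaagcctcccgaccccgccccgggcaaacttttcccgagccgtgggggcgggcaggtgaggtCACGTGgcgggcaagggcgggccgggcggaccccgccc
Slc12a9 (chr5:137333583-137333832, - strand): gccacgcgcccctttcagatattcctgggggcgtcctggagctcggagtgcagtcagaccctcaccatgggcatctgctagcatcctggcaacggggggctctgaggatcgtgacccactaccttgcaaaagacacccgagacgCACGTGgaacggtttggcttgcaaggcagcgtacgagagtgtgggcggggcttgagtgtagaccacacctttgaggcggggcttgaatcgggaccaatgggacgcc

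The hexamer begins 36 bases before the downstream start of *Slc12a5*, 38 bases before a start of *Slc12a7* and 106 bases before the start of *Slc12a9*. RefSeq windows were found for 4 of the 5 genes, and 3 of their 6 windows hold CACGTG, against 6.02% of all 32851 windows of this length. The window of *Slc12a4* holds no match to CACGTG. The GC content of the 6 windows was between 60.8 and 68.8%, where the median of all windows was 52.4%. They held 13 to 21 CG dinucleotides, which CACGTG contains, where the median of all windows was 6. The part of this content in the share with CACGTG was not tested. The windows of *Slc12a7* overlap each other. GGGCGG and GCGTGGGCG were also searched for in these windows. GGGCGG was found before starts of *Slc12a4*, *Slc12a5*, *Slc12a7* and *Slc12a9*, and in 32.7% of all windows. Of the 6 windows, only that of the upstream start of *Slc12a5* lacked it. GCGTGGGCG had no match in any of them and occurred in 0.536% of all windows. A match describes the letters in the window and not a bound site. Transcripts of *Usf1* and *Usf2*, which encode the USF factors, differed by -0.20 and -0.07 on the log2 scale between microbead and saline retina, and neither passed the test (adjusted p = 0.470 and 0.799 from edgeR).

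Between saline and microbead retina, 0 of the 5 cotransporter genes passed edgeR's quasi-likelihood test at an adjusted p-value under 0.05, the threshold passed by 12.8% of all tested genes, 6.46% of them higher and 6.31% lower in microbead retina. At an unadjusted p-value under 0.05 in edgeR there were 4, each lower in microbead retina, where 31.4% of all tested genes passed this threshold and 16.2% passed it and were lower. DESeq2 called 2 of the 5 (*Slc12a5* and *Slc12a7*) and 17.9% of the 20270 genes to which it gave an adjusted p-value, and limma-voom called 0 of the 5 and 12.5% of all tested genes. The microbead values lay wholly below the saline values for *Slc12a2*, *Slc12a4*, *Slc12a5* and *Slc12a7*, and no gene of the 5 lay wholly above. Groups did not overlap for 37.8% of all tested genes, and 18.9% of all tested genes were of this kind and lower in microbead retina. The median log2 fold change was -0.63 over the 5 genes and -0.03 over all tested genes.

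*Slc12a5* was measured at 832.5, 1044 and 1341 CPM in saline replicates 1 to 3 and at 432.1, 644.2 and 713.9 CPM in microbead replicates 1 to 3. The lowest saline retina held more than the highest microbead retina. The means were 1072 ± 255.3 CPM in saline and 596.8 ± 146.8 CPM in microbead retina (SD, n = 3 each). The log2 fold change was -0.85 (standard error 0.25, 95% confidence interval -1.40 to -0.29), a percent change of -44.4%, and edgeR's adjusted p-value was 0.0525. This value misses the threshold of 0.05, and single choices moved it across. Without saline replicate 1, the saline library with the least *Slc12a5*, the log2 fold change was -1.002 (adjusted p = 0.0279 from edgeR), whereas without saline replicate 3 it was -0.66 (adjusted p = 0.117 from edgeR). DESeq2 gave -0.84 and an adjusted p-value of 0.0126, and the 8 alternatives that keep all 6 libraries gave adjusted p-values between 0.00533 (edgeR without a filter) and 0.0617 (edgeR with upper-quartile scaling). In whole retina, fewer cells that express a gene and less RNA of it per cell cannot be told apart.

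Saline replicate 1, lowest in *Slc12a5* among saline retinas, was also lowest in transcripts of retinal ganglion cell (RGC) and amacrine markers. The 20 RGC markers summed to 608, 1575 and 2013 CPM in saline and to 1810, 1348 and 1666 CPM in microbead retina, and the 12 amacrine markers to 1437, 2346 and 2744 CPM and to 2133, 1987 and 2239 CPM. Both sums overlapped between the groups. The parallel did not extend to microbead retina. There, replicate 1 was lowest in *Slc12a5* (432.1 CPM) but highest in RGC markers and intermediate in amacrine markers. The 12 bipolar markers summed to 2123 ± 194 CPM in saline and 1958 ± 276 CPM in microbead retina (SD, n = 3 each), with overlap. The part of these cell types in the values of *Slc12a5* was not tested.

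*Slc12a7*, which encodes KCC4, lies on the forward strand of chromosome 13 from 73733094 to 73816754, with 11 annotated transcripts of which 1 is coding. It was measured at 19.2, 16.3 and 23.9 CPM in saline and at 7.46, 13.4 and 13.5 CPM in microbead retina. Microbead replicate 1 was lowest, as it was for *Slc12a5*, and saline replicate 3 was highest for both genes. The means were 19.8 ± 3.84 and 11.45 ± 3.45 CPM (SD, n = 3 each). The log2 fold change was -0.80 (standard error 0.27, 95% confidence interval -1.41 to -0.18), and the adjusted p-value was 0.0821 in edgeR and 0.0459 in DESeq2. Without microbead replicate 1 it was -0.57 and without microbead replicate 3 it was -0.94, and in none of the fits that left out a library was it past the threshold of edgeR (adjusted p = 0.0896 to 0.185).

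*Slc12a4*, which encodes KCC1, a broadly expressed cotransporter of volume regulation, lies on the reverse strand of chromosome 8 from 105943590 to 105966097. It was measured at 18.7, 12.5 and 13.95 CPM in saline and at 9.06, 11.5 and 8.64 CPM in microbead retina. The gap between the groups was narrow, from 11.5 CPM in microbead replicate 2 to 12.5 CPM in saline replicate 2, and saline replicate 1 was the highest of all. The log2 fold change was -0.63 (standard error 0.24, 95% confidence interval -1.17 to -0.09, adjusted p = 0.108 from edgeR), and -0.45 without saline replicate 1. The antisense gene *Gm16156* overlaps *Slc12a4* on the opposite strand, and the sources used here do not state whether counting used strand. *Gm16156* itself had at most 3 counts in any library.

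*Slc12a2*, which encodes the chloride loader NKCC1, lies on the forward strand of chromosome 18 from 57878678 to 57946821. It was measured at 52.7, 50.5 and 60.2 CPM in saline and at 41.4, 41.4 and 27.7 CPM in microbead retina. Saline retinas lay close together, and microbead replicate 3 was lowest. The means were 54.5 ± 5.06 and 36.8 ± 7.87 CPM (SD, n = 3 each). The log2 fold change was -0.56 (standard error 0.20, 95% confidence interval -1.01 to -0.12, adjusted p = 0.0887 from edgeR) and -0.40 without microbead replicate 3.

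*Slc12a9*, which encodes an orphan member of the family that binds other cotransporters, lies on the reverse strand of chromosome 5 from 137314558 to 137333597. It was measured at 38.9, 29.5 and 22.7 CPM in saline and at 33.7, 33.7 and 54.1 CPM in microbead retina. The groups overlapped, since saline replicate 1 exceeded both microbead replicates 1 and 2. The log2 fold change was 0.42 (standard error 0.26, 95% confidence interval -0.17 to 0.997, adjusted p = 0.305 from edgeR), an interval that includes 0. It was 0.14 without microbead replicate 3 and 0.63 without saline replicate 1.

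**Figure D1:**
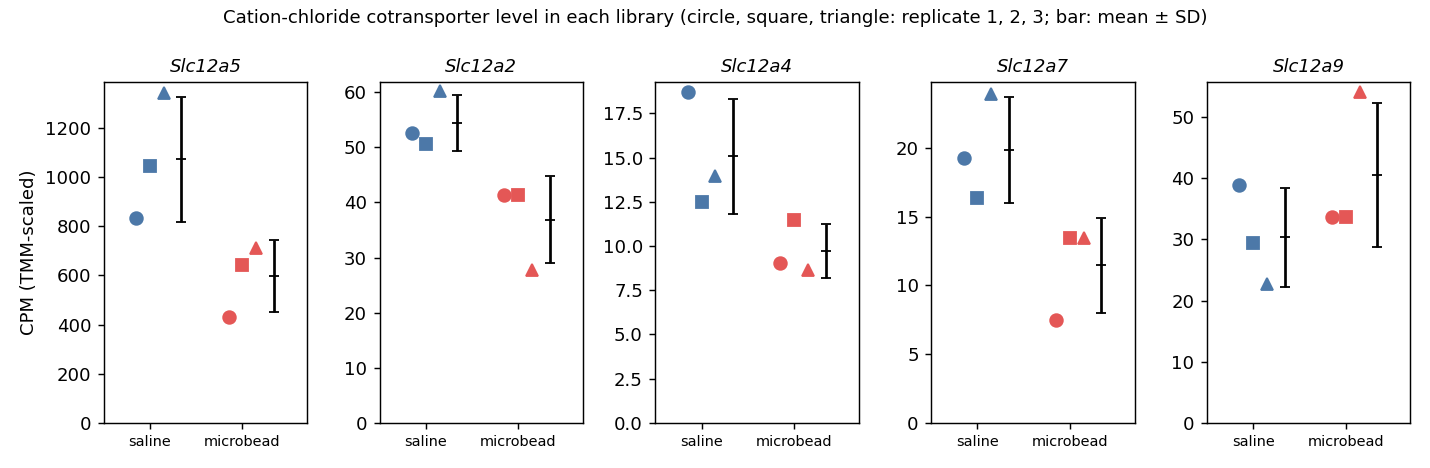
CPM of the 5 cotransporter genes in each saline (blue) and microbead (red) library, on linear axes that start at 0, with symbols for the replicate number and bars for mean ± SD (n = 3). The microbead points lie below all saline points for *Slc12a5*, *Slc12a2*, *Slc12a4* and *Slc12a7* and overlap with them for *Slc12a9*.

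Summed markers of Müller glia, astrocytes, endothelium and lens, like the 4 lower cotransporter genes, did not overlap between the groups and were lower in microbead retina. The 12 Müller glia genes summed to 7214 to 10900 CPM in saline and 5659 to 7015 CPM in microbead retina, the 6 astrocyte genes to 594 to 683 and 432 to 551 CPM, and the 10 endothelial genes to 482 to 686 and 304 to 451 CPM, each without overlap. Of these lists, 3 of 12, 1 of 6 and 4 of 10 genes were lower and past the threshold of edgeR, against 6.31% of all tested genes. The gap between the Müller glia sums was narrow, from 7015 to 7214 CPM. Taken singly, most of the 12 Müller glia genes overlapped between the groups. Their log2 fold change was negative for 11 and positive for 1, with a median of -0.33. Among the astrocyte genes, 3 had a positive and 3 a negative log2 fold change, with a median of -0.07. The lower astrocyte sum therefore does not describe that list as a whole. The 8 horizontal cell markers summed to 575 to 689 and 516 to 617 CPM, with overlap, although their median log2 fold change was -0.79 and 1 of them was lower and past the threshold. The 10 microglia markers summed to 83.6 to 258.5 and 61.8 to 135.6 CPM, and the 12 markers of pigment and ciliary epithelium to 228.5 to 450.7 and 223.8 to 244.2 CPM, both with overlap, with median log2 fold changes of -0.74 and 0.28 and 1 gene of each lower and past the threshold. None of the genes in these 6 lists was at 0 in all libraries. The part of these cell types in the cotransporter values was not tested. Without saline replicate 3, which held lens RNA, the log2 fold changes were -0.49 for *Slc12a2*, -0.69 for *Slc12a4*, -0.64 for *Slc12a7* and 0.24 for *Slc12a9*.

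**Figure D2:**
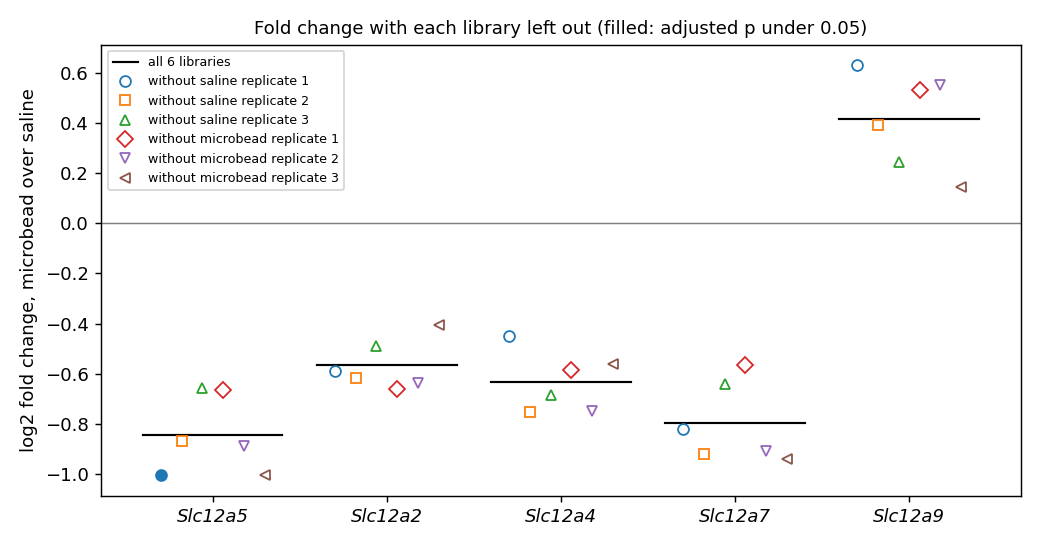
Log2 fold change of each gene (microbead over saline) with all 6 libraries (black line) and with 1 library left out (symbols), filled where the adjusted p-value from edgeR was under 0.05. Each gene keeps its direction in all of these fits, and the only filled symbol is that of *Slc12a5* without saline replicate 1. For the 4 genes whose groups do not overlap, leaving out 1 library could hardly reverse the direction.

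Levels of different genes were compared per length, as RPKM (CPM per kilobase of annotated exon). *Slc12a5* was by far the most abundant of the 5, at 144 ± 34.3 RPKM in saline and 80.1 ± 19.7 RPKM in microbead retina (SD, n = 3 each), and its level exceeded that of 98.6% of tested genes. *Slc12a9* followed with 6.05 ± 1.62 and 8.07 ± 2.35 RPKM, *Slc12a2* with 4.99 ± 0.463 and 3.37 ± 0.721 RPKM, *Slc12a4* with 3.52 ± 0.761 and 2.27 ± 0.3585 RPKM, and *Slc12a7* with 1.565 ± 0.303 and 0.9035 ± 0.272 RPKM. In saline retina *Slc12a9* and *Slc12a2* overlapped, at 4.52 to 7.75 and 4.63 to 5.51 RPKM, and did not differ beyond their spread. In microbead retina these no longer overlapped, whereas *Slc12a2* and *Slc12a4* did, at 2.54 to 3.79 and 2.02 to 2.68 RPKM. *Slc12a7* lay below the other 4 in every library.

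*Slc12a5* made up 89.5 ± 3.31% of the summed RPKM of the 5 genes in saline and 84.2 ± 2.41% in microbead retina (SD, n = 3 each). The difference was -5.28 percentage points (two-sided exact permutation test, p = 0.2). The groups overlapped narrowly, at 85.82% in saline replicate 1 and 85.86% in microbead replicate 2. *Slc12a9* made up 4.02 ± 1.83 and 8.56 ± 1.64%, and the microbead shares all exceeded the saline shares (exact permutation test, two-sided, p = 0.1, below which 3 retinas against 3 cannot go). The shares of *Slc12a2*, *Slc12a4* and *Slc12a7* overlapped (two-sided exact permutation tests, p = 0.6 to 0.9). The sum itself was 130.3, 154.9 and 195.2 RPKM in saline and 71.22, 100.8 and 112.3 RPKM in microbead retina, again without overlap (two-sided exact permutation test, p = 0.1). Tests of the shares and of the sum were not planned. Since *Slc12a5* made up most of the sum, neither the sum nor the share of *Slc12a9* is independent of its values.

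**Figure D3:**
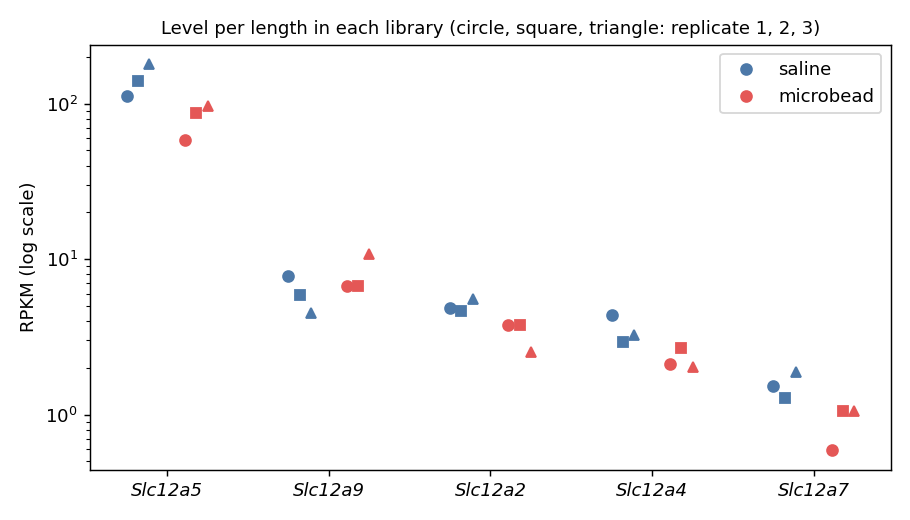
RPKM of each gene in each library on a log axis, saline in blue and microbead in red, with symbols for the replicate number. *Slc12a5* stands above every other gene in each library, at 58.0 to 180 RPKM, and *Slc12a7* is lowest throughout.

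The ratio of the chloride extruder to the chloride loader does not depend on how libraries are scaled. *Slc12a5* had 15.8, 20.7 and 22.3 counts per count of *Slc12a2* in saline and 10.4, 15.6 and 25.7 in microbead retina. Microbead retinas held both the lowest and the highest ratio. On the log2 scale the means were 4.28 ± 0.26 in saline and 4.01 ± 0.65 in microbead retina (SD, n = 3 each), a difference of -0.27 within the spread (two-sided exact permutation test, p = 0.6). Its sign rested on microbead replicate 1: without that library the difference was 0.047, while without saline replicate 3 it was -0.17. The log2 ratio of *Slc12a5* to *Slc12a9* counts, which was chosen after these values were seen and so was not tested, was 4.42, 5.15 and 5.88 in saline and 3.68, 4.26 and 3.72 in microbead retina, without overlap.

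The cotransporters best known from kidney were low in retina. *Slc12a1*, which encodes NKCC2, had 8 to 34 counts in a library and was at 0.622 ± 0.304 CPM in saline and 1.41 ± 0.871 CPM in microbead retina (SD, n = 3 each; adjusted p = 0.273 from edgeR). The groups overlapped for *Slc12a1*. *Slc12a3*, which encodes the thiazide-sensitive cotransporter NCC, had 5, 16 and 3 counts in saline and 2, 5 and 10 counts in microbead libraries and did not pass the filter. A difference in it was not detectable at this depth, where 3 counts correspond to 0.0622 to 0.217 CPM. *Slc12a8*, a distant member, was at 0.3485 ± 0.1001 and 0.629 ± 0.359 CPM (SD, n = 3 each; adjusted p = 0.383 from edgeR).

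None of the 6 genes for WNK kinases and for SPAK and OSR1, which together activate NKCC1 and inhibit the KCCs by phosphorylation, passed edgeR's threshold. *Wnk1*, the most upstream of these kinases, was at 267 ± 11.7 CPM in saline and 307 ± 72.4 CPM in microbead retina (SD, n = 3 each), a log2 fold change of 0.20 (95% confidence interval -0.25 to 0.64, adjusted p = 0.529 from edgeR). *Stk39*, which encodes SPAK, was at 72.4 ± 10.8 and 58.7 ± 5.68 CPM (log2 fold change -0.30, 95% confidence interval -0.70 to 0.09, adjusted p = 0.271 from edgeR). *Oxsr1*, which encodes OSR1, was at 50.6 ± 14.6 and 68.0 ± 10.7 CPM (log2 fold change 0.43, 95% confidence interval -0.11 to 0.96, adjusted p = 0.254 from edgeR). *Wnk4*, named after its values were seen, was nearest to the threshold of these kinases, at 16.7, 17.1 and 15.4 CPM in saline and 18.4, 30.1 and 35.6 CPM in microbead retina, without overlap (log2 fold change 0.77, 95% confidence interval 0.22 to 1.33, adjusted p = 0.0673 from edgeR). Over all tested genes, 6.46% were higher and 6.31% were lower past the threshold of edgeR. Among the 16 tested genes of this pathway, 0 were higher and 1 was lower past the threshold, with a median log2 fold change of -0.19. The lower gene was *Ppp1cb*, a catalytic subunit of protein phosphatase 1, which dephosphorylates members of the family, at 261 ± 42.5 CPM in saline and 145 ± 31.6 CPM in microbead retina (log2 fold change -0.85, adjusted p = 0.0337 from edgeR).

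**Figure D4:**
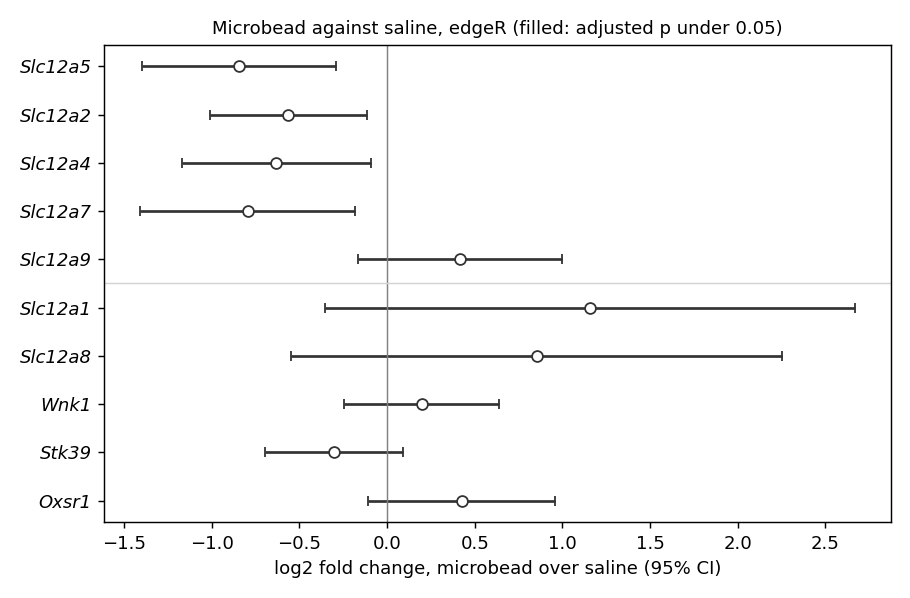
Log2 fold change (microbead over saline) with 95% confidence intervals from edgeR for the 5 cotransporter genes (above the line) and for *Slc12a1*, *Slc12a8* and the kinases *Wnk1*, *Stk39* and *Oxsr1* (below it). No point is filled, which would mark an adjusted p-value under 0.05, and the intervals of *Slc12a9*, *Slc12a1*, *Slc12a8* and the 3 kinases include 0.

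The counts in this paragraph stand beside 6.46% of all tested genes that were higher and 6.31% that were lower past the threshold of edgeR. Of 16 genes for proteins that bind KCC2 or control its expression, 1 was higher and 0 were lower past the threshold, with a median log2 fold change of -0.17. The higher gene was *Grik2*, which encodes the kainate receptor subunit GluK2, a binding partner of KCC2, at 12.2 ± 1.71 CPM in saline and 25.0 ± 2.24 CPM in microbead retina (log2 fold change 1.04, adjusted p = 0.0164 from edgeR). Of 30 tested genes for other chloride and bicarbonate carriers and channels, 1 was higher and 3 were lower past the threshold, and the median log2 fold change was -0.37. *Clcn2*, a chloride channel opened by hyperpolarization, was higher (log2 fold change 1.09, adjusted p = 0.0269 from edgeR), whereas *Ttyh2* (-0.91), *Lrrc8b*, a subunit of volume-regulated anion channels (-0.85), and *Clcn3*, an endosomal chloride-proton exchanger (-0.79), were lower, with adjusted p-values of 0.0197 to 0.0294 from edgeR. Without saline replicate 2 or without microbead replicate 3, the adjusted p-values of *Ppp1cb*, *Grik2*, *Clcn2*, *Ttyh2*, *Lrrc8b* and *Clcn3* were all over 0.05 (0.0538 to 0.125). The same held without microbead replicate 1 for *Ppp1cb*, *Ttyh2*, *Lrrc8b* and *Clcn3*, without microbead replicate 2 for *Ppp1cb*, *Clcn2*, *Ttyh2* and *Clcn3*, and without saline replicate 3 for *Ppp1cb* and *Clcn3*. Of the 20 GABA-A and glycine receptor genes, whose channels pass the chloride that these transporters move, 0 were past the threshold. Their log2 fold change was negative for 18 and positive for 2, with a median of -0.42. Over all tested genes, 12.8% were past the threshold and 52.1% had a negative log2 fold change.

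The genes whose log2 CPM followed each cotransporter most closely over the 6 libraries were found by Pearson's r in a search of 15087 genes whose mean reached 1 CPM. Over only 6 libraries in groups of 3, such values describe the order of these libraries and carry no test. They were *Tbc1d9* (r = 0.998) and *Mtor* (r = 0.998) for *Slc12a5*, *Plxnb2* (r = 0.996) and *Sept8* (r = 0.994) for *Slc12a7*, *Wnt9a* (r = 0.995) and *Fosl2* (r = 0.994) for *Slc12a4*, *Slc2a12* (r = 0.993) and *Sqrdl* (r = 0.993) for *Slc12a2*, and *Adck5* (r = 0.991) and *Fance* (r = 0.988) for *Slc12a9*.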

How the data were processed

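Reads of poly(A)-enriched, stranded, paired-end libraries were aligned by the authors with STAR 2.5.3a to GRCm38.p5 with GENCODE vM12 and counted per gene with featureCounts 1.15.2 (versions per the submitters' processing notes), and raw counts per gene were deposited. The handling of strand and of multimapping reads is not given in the sources used here. The deposited table also holds the authors' DESeq2 comparison as a mean normalized signal, a log2 fold change, a linear ratio, raw and adjusted p-values, and calls, none of which was used.

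Low genes were removed by filterByExpr with a minimum count of 10 and a minimum total of 15. Libraries were scaled by TMM and compared, microbead against saline, with edgeR 4.0.16 in R 4.3.3 (quasi-likelihood test, two-sided, Benjamini-Hochberg over all tested genes, threshold 0.05). Confidence intervals are the log2 fold change ± the t quantile times its standard error. RPKM use the union of exons of GENCODE vM21 (same build, 99.6% of tested genes), so levels per length are approximate for counts made with vM12. Of the 100-base stretches of the 5 genes' transcripts, 0% occur in another gene, and at most 0.132% of 31-base stretches do. No library was a copy of another: between libraries of a group, chi-square per degree of freedom was 20.1 or more. Limits of 3 counts cover counting error only. The log2 CPM used for likeness had a prior count of 2. Symbols stored as dates (24) were restored by gene ID. *Ppp1ca*, on the list of kinases and regulators, was not analysed here.

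The members and lists were chosen with earlier results of these data known. Results for some listed genes are not reported here. Named genes are the 5 members, *Slc12a1*, *Slc12a3*, *Slc12a8*, *Wnk1*, *Stk39* and *Oxsr1*, in each pathway list up to 4 genes with the largest change among those past the threshold at a mean of at least 1 CPM, and the 2 genes most like each member; *Usf1*, *Usf2*, *Wnk4* and *Gm16156* were named after their values were seen. As alternatives, scaling was changed to RLE, to the upper quartile, or to totals that exclude the 100 most abundant genes. The filter was dropped, or set to 10 counts in each of the libraries. The test was changed to DESeq2 1.42.0 or to limma-voom (limma 3.58.1), or the replicate number was added as a block, and single libraries were omitted. Steps that run across genes were first tested on simulated data with 200 changed genes. Of these, 43.5% were called, and 70.0% of those changed 4-fold. Unchanged genes made up 10.3% of the calls, and 0 genes were called where no change was simulated. A gene that was not called may therefore still differ.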

Additional observations from a re-analysis of the deposited data

How the results depend on the processing

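The fold changes of the 5 genes were recomputed 70 times and kept their direction in all 70, and 8 of these were past the threshold. All of these fits reuse the same 6 libraries. For the 4 genes whose groups do not overlap, leaving out a library could hardly reverse the direction, so the kept direction is no further evidence. Of the 5 genes, 3 were past it without a filter on low counts (*Slc12a5* -0.90, *Slc12a7* -0.85 and *Slc12a2* -0.62), 2 with DESeq2 (*Slc12a5* -0.84 and *Slc12a7* -0.79), 1 with at least 10 counts in every library (*Slc12a5* -0.83) and 1 with the replicate block (*Slc12a5* -0.85, adjusted p = 0.0460 from edgeR), against 0 as reported. With each library left out, 0 to 1 were past it, and *Slc12a5* ranged from -1.004 to -0.655. Over all genes, 2261 were past the threshold (12.8% of those tested), against 3720 without a filter and 3621 with DESeq2 (17.9%). With at least 10 counts in every library 2210 were past it, and with the replicate block 905 of the same 17707. With a library left out there were 46 (without microbead replicate 3) to 2621 (without saline replicate 1). More genes were thus called over the whole table, too, without a filter and with DESeq2. The difference in log2 ratio of *Slc12a5* to *Slc12a2* ran from -0.60 without microbead replicate 3 to 0.047 without microbead replicate 1. The cause of these shifts was not tested.

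No source used here states that same-numbered libraries are pairs. Their deviations from the group means correlated at -0.0351, 0.136 and 0.00997 across genes for numbers 1, 2 and 3. Libraries with different numbers correlated at -0.196 to 0.143. With group means of 3 libraries, such values cannot tell whether the block marks pairs. The block took *Ppp1cb* (adjusted p = 0.0765 from edgeR), *Clcn2*, *Ttyh2* and *Clcn3* over 0.05. The smallest count of the 5 genes in a library was 133, and the part of depth in the calls was not tested.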
